A study of Mus musculus with 16 samples.

Results

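The genes described here were 3 matrix metalloproteinases (Mmp2, Mmp3 and Mmp14), the 4 tissue inhibitors of metalloproteinases (Timp1, Timp2, Timp3 and Timp4) and 3 lysyl oxidases (Lox, Loxl1 and Loxl2). They were chosen by name, with earlier results of these data known. They are 10 of the 57143 genes in the deposited table, and all 10 passed the filter on low values described below. Polyadenylated RNA was sequenced from left ventricles of C57BL/6 males that had undergone abdominal surgery under sevoflurane, an inhaled anaesthetic. Tissue was taken at 0h, 3h, 24h and 7d, with 4 libraries at each time. The labels give the 0h libraries the same surgery label as all others, so no group labelled as unoperated is compared here, and they give no age. Separate animals are not stated as the source of the libraries at a time, so p-values measure the spread between these libraries, which may be technical.

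Metalloproteinases are zinc enzymes, mostly secreted as inactive precursors, that cut collagens, proteoglycans and adhesive glycoproteins of the extracellular matrix. TIMPs bind and block them, and the balance of protease and inhibitor is studied in the heart because fibrillar collagen around cardiomyocytes sets the stiffness of the ventricle. Lysyl oxidases are copper enzymes that act in the opposite direction: they oxidise lysines of collagen and elastin so that fibres become cross-linked.

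Levels are given in TPM, transcript counts scaled to a common total per library, which are corrected for gene length and can be compared between genes. Fold changes come from raw counts by edgeR's quasi-likelihood test over 16866 genes, and a change was called at a Benjamini-Hochberg adjusted p under 0.05. Libraries held 8313655 to 12893551 counts. The members' own counts ran from 16 (Mmp3) to 4493 (Timp3) in a library, so Mmp3 and Timp1, with 16 to 76 and 17 to 28 counts at 0h, were the least precisely measured members at baseline. The median over all tested genes of the difference from 0h in mean log2(TPM + 1) was -0.15 at 3h, -0.19 at 24h and -0.08 at 7d. The edgeR fold changes, in contrast, are centred near 0. Cardiomyocyte markers were the most abundant marker list in every library, with a summed level of 53790 to 62940 TPM.

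Mmp3, Timp1 and Lox were higher at 24h than at 0h, and Timp2 and Loxl2 were lower. At 3h, Loxl1 was lower than at 0h. At 7d no member was called against 0h by edgeR (0.86% of all genes were), while Timp3 and Timp4 were lower than at 3h. A fit with Myl7, a transcript of atrial muscle, as a covariate kept none of these calls. Myl7 itself was higher at 24h, so at 24h against 0h that fit cannot tell time and atrial transcripts apart. The Loxl1 call was also lost without any 1 of the 8 libraries compared, and the Loxl2 call without any 1 of the 4 libraries at 0h. In the test for any change over the 4 times, 8 of the 10 members were called, beside 20.2% of all tested genes. Mmp14 (adjusted p = 0.0811, edgeR) and Loxl2 (adjusted p = 0.0573, edgeR) were not. The members were chosen with earlier results of these data known, so the count of 8 is no test of the group. It was 1 with Myl7 as a covariate and 3 without 3h replicates 2 and 3. In whole tissue, fewer cells of a type and less RNA per cell cannot be told apart.

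**Figure D1:**
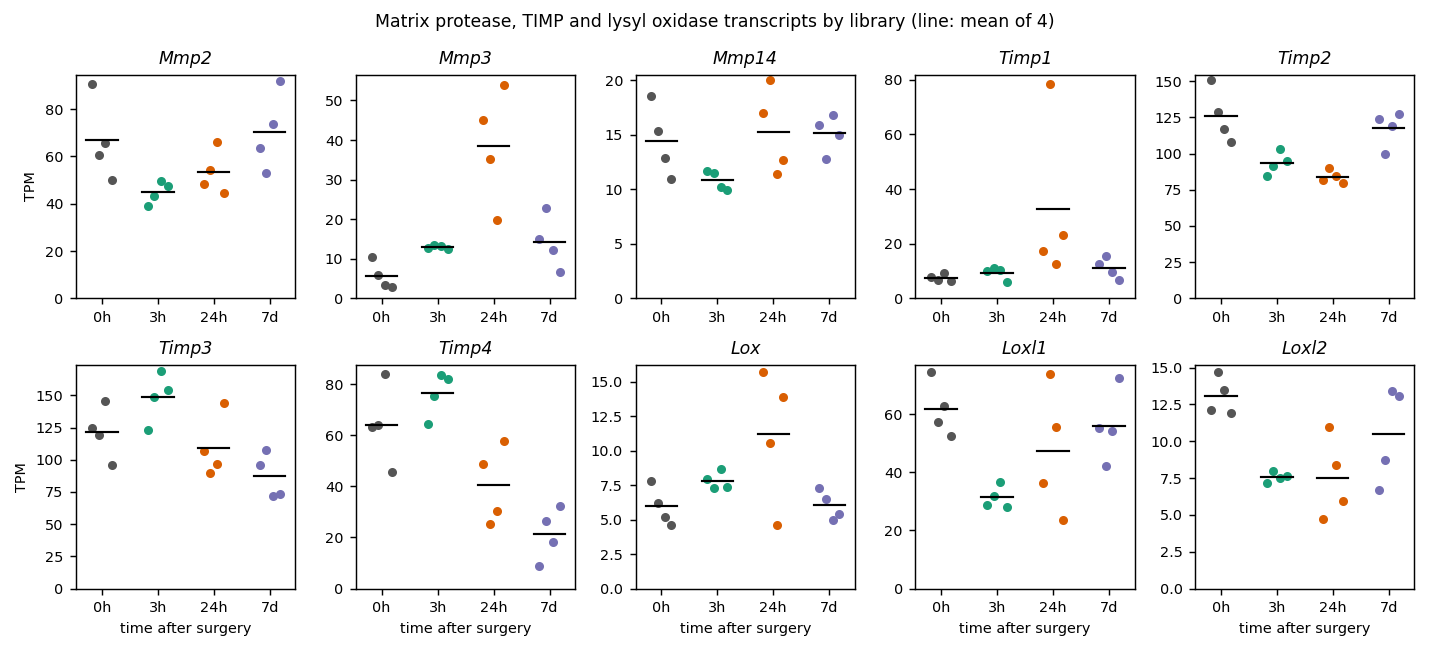
TPM of each of the 10 genes (vertical axes, TPM) in every library at 0h, 3h, 24h and 7d (horizontal axes), with a line at the mean of the 4 libraries of a time. The 24h points of Mmp3 lie between 19.9 and 54.0 TPM, above all points of the other times except 1 library at 7d, and the 7d points of Timp4 lie between 8.83 and 32.2 TPM.

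At 0h the members fell into 4 bands of level, and library ranges overlapped within a band and not between bands. Timp2 (126.5 ± 18.8 TPM, SD, n = 4) and Timp3 (121 ± 20.5 TPM) were highest. Mmp2 (66.8 ± 17.2 TPM), Timp4 (64.2 ± 15.6 TPM) and Loxl1 (61.8 ± 9.50 TPM) came next. Mmp14 (14.4 ± 3.27 TPM) and Loxl2 (13.1 ± 1.30 TPM) followed, and Timp1 (7.51 ± 1.40 TPM), Lox (5.97 ± 1.41 TPM) and Mmp3 (5.68 ± 3.49 TPM) were lowest. At 24h this order had moved: Mmp3 averaged 38.6 ± 14.6 TPM and Timp1 32.8 ± 30.7 TPM, near Timp4 at 40.6 ± 15.3 TPM.

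Mmp3 (ENSMUSG00000043613, GRCm38 chr9:7445822-7455975, plus strand) encodes a stromelysin, a protease that cuts proteoglycans, fibronectin and laminin and can activate the precursors of other metalloproteinases. Its promoter is shown because Mmp3 had the highest fold change among the members. The window runs from 250 bases before to 50 bases after the gene's start (RefSeq, build GRCm38.p6, chr9:7445572-7445871, plus strand, 40% G and C), and capitals mark an AP-1 match (TGANTCA) at positions -46 to -40 from the start and a TATA box match (TATAAA) at -7 to -2.
Mmp3 promoter: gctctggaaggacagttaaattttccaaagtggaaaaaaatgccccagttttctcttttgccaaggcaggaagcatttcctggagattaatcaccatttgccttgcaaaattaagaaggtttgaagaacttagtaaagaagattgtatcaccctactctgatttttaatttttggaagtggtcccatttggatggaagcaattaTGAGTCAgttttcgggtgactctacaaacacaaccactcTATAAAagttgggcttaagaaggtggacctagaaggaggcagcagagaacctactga
Both strands were searched; an AP-1 match was held by 7.81% and a TATA match by 13.6% of 32851 mouse promoters of the same length. These are matches of letters, and no binding was measured.

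Mmp3 was at 10.5, 5.92, 3.35 and 2.92 TPM in the 0h libraries, at 12.8, 13.6, 13.2 and 12.5 TPM at 3h, at 45.0, 35.3, 19.9 and 54.0 TPM at 24h, and at 15.0, 22.9, 12.2 and 6.54 TPM at 7d. Every 24h library was above every 0h library and every 3h library, the 3h libraries lay within a narrow range above all 0h libraries, and the 7d libraries overlapped all other times. Mmp3 rose at 24h against 0h by 2.97 on the log2 scale (SE 0.46, 7.84-fold, adjusted p = 0.00113, edgeR), with 4 of 4 libraries higher. In that comparison 5 members were called, beside 17.4% of all tested genes: 3 were higher, beside 9.2% of all genes, and 2 were lower, beside 8.19%. At 24h against 3h it was higher by 1.63 (SE 0.42, adjusted p = 0.0311, edgeR), one of 3 members called, all higher, beside 7.58% of all genes (4.03% higher, 3.56% lower). At 7d it fell by 1.59 against 24h (SE 0.41, adjusted p = 0.0309, edgeR), one of 4 members called, 1 higher and 3 lower, beside 8.08% of all genes (3.74% higher, 4.34% lower). The log2 difference at 3h against 0h was 1.34 (SE 0.48, adjusted p = 0.122, edgeR) and at 7d against 0h 1.38 (SE 0.47, adjusted p = 0.186, edgeR), neither called.

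The 24h call of Mmp3 against 0h was kept without any 1 of the 8 libraries compared (adjusted p 0.000150 to 0.00543, edgeR). The call against 3h was lost without any 1 of the 4 libraries at 3h and without 24h replicate 1 or 4 (log2 difference 1.36 to 1.66 over these fits), and the call of 7d against 24h was lost without 24h replicate 1 or 4 or 7d replicate 1, 3 or 4 (-1.59 to -1.32).

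Mmp2 (ENSMUSG00000031740, chr8:92827291-92853420, plus strand) encodes a gelatinase that cuts denatured collagen and basement membrane collagen. It was at 90.7, 60.8, 65.5 and 50.1 TPM at 0h, at 39.1, 43.4, 49.7 and 47.6 TPM at 3h, at 48.3, 54.4, 66.1 and 44.5 TPM at 24h, and at 63.4, 52.9, 73.9 and 92.0 TPM at 7d. The 3h libraries were below all 0h and all 7d libraries, and the 24h libraries overlapped both. Mmp2 was higher at 7d than at 3h by 0.56 (SE 0.14, adjusted p = 0.0255, edgeR), one of 3 members called, 1 higher and 2 lower, beside 4.61% of all genes (1.94% higher, 2.67% lower). The difference at 3h against 0h was -0.38 (SE 0.15, adjusted p = 0.121, edgeR) and was not called. The call of 7d against 3h was lost without 3h replicate 1, 2 or 3 or without 7d replicate 3 or 4 (log2 difference 0.42 to 0.58).

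Mmp14 (ENSMUSG00000000957, chr14:54431612-54445364, plus strand) encodes a membrane-anchored metalloproteinase that, with TIMP2 as a bridge, activates the MMP2 precursor at the cell surface. It was at 18.5, 15.3, 12.9 and 10.9 TPM at 0h, at 11.7, 11.5, 10.2 and 9.97 TPM at 3h, at 17.0, 20, 11.4 and 12.7 TPM at 24h, and at 15.9, 12.8, 16.8 and 15.0 TPM at 7d. The 3h libraries were the lowest as a group and lay below every 7d library, but they overlapped those of 0h and 24h. Mmp14 was higher at 24h than at 3h by 0.52 (SE 0.16, adjusted p = 0.0474, edgeR), a call near the threshold that was lost without 3h replicate 2, 3 or 4 or 24h replicate 1, 2 or 4 (0.42 to 0.55). Its difference to 0h was not called at any time, with a 95% interval of -0.04 to 0.65 on 12 residual degrees of freedom at 24h.

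Timp1 (ENSMUSG00000001131, chrX:20870166-20874735, plus strand) encodes a secreted inhibitor of many metalloproteinases that is widely used as a marker of tissue injury. Its promoter is shown as that of the inhibitor with the highest fold change (RefSeq, GRCm38.p6, chrX:20869916-20870215, plus strand, 55% G and C). Capitals mark a CCAAT box (CCAAT) and a GC box (GGGCGG), both read on the reverse strand, at positions -190 to -186 and -8 to -3.
Timp1 promoter: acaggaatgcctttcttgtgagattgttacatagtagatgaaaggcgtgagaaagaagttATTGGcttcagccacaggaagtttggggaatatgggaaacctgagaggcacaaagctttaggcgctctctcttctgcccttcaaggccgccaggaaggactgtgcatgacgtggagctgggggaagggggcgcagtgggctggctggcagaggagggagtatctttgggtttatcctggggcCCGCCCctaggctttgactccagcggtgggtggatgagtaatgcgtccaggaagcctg
Of all promoters, 37.4% held a CCAAT box match and 35.7% a GC box match. The exact letters searched for AP-1 (TGANTCA), STAT (TTCNNNGAA), glucocorticoid response element (ACANNNTGT), TATA and E box (CACGTG) were not in this window. Sites that differ from these letters by a base were not searched, so their absence is not shown.

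Timp1 was at 7.87, 6.55, 9.34 and 6.29 TPM at 0h, at 10.1, 11.2, 10.3 and 5.92 TPM at 3h, at 17.2, 78.3, 12.6 and 23.1 TPM at 24h, and at 12.7, 15.5, 9.82 and 6.77 TPM at 7d. All 24h libraries were above all 0h and 3h libraries, and 24h replicate 2 stood far above the other 24h libraries. Timp1 rose at 24h against 0h by 2.30 (SE 0.47, 4.91-fold, adjusted p = 0.00381, edgeR), and without 24h replicate 2 the log2 difference was 1.51. The call was kept without any 1 library (adjusted p 0.000175 to 0.0167, edgeR). At 24h it was also higher than at 3h by 1.79 (SE 0.45, adjusted p = 0.0235, edgeR), and at 7d it fell by 1.61 against 24h (SE 0.44, adjusted p = 0.0314, edgeR).

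Those later contrasts of Timp1 were less stable when single libraries were left out. The call of 24h against 3h was lost without any 1 of the 4 libraries at 3h, or without 24h replicate 2, which left a log2 difference of 1.0. The call of 7d against 24h was lost without 24h replicate 2 or 4 or 7d replicate 1, 3 or 4, and without 24h replicate 2 the difference was -0.83. At 3h against 0h the log2 difference of Timp1 was 0.51 with a 95% interval of -0.60 to 1.62.

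Timp2 (ENSMUSG00000017466, chr11:118301069-118355740, minus strand) encodes the inhibitor that also takes part in MMP2 activation. It was at 151, 129, 117 and 108 TPM at 0h, at 84.5, 91.3, 103 and 95.2 TPM at 3h, at 81.4, 90.2, 84.4 and 79.6 TPM at 24h, and at 124, 100, 119 and 127 TPM at 7d. The 24h libraries lay within a narrow range below every 0h and every 7d library, and the 3h libraries also lay below every 0h library. Timp2 fell at 24h against 0h by 0.37 (SE 0.10, adjusted p = 0.0125, edgeR), and at 7d it was higher than at 24h by 0.36 (SE 0.10, adjusted p = 0.0240, edgeR). At 3h against 0h the difference was -0.25 (SE 0.10, adjusted p = 0.137, edgeR). The 24h call was lost without 0h replicate 1, the library with the highest Timp2 (-0.30), and the 7d call without 7d replicate 1, 3 or 4 (0.34 to 0.36).

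Timp3 (ENSMUSG00000020044, chr10:86300372-86349506, plus strand) encodes an inhibitor that stays bound to the matrix and also blocks several ADAM and ADAMTS proteases. It was at 125, 119, 146 and 95.8 TPM at 0h, at 123, 149, 169 and 154 TPM at 3h, at 107, 89.7, 96.6 and 144 TPM at 24h, and at 95.8, 108, 71.9 and 73.2 TPM at 7d. The 7d libraries were below every 3h library, and the other times overlapped each other. Timp3 fell at 7d against 3h by 0.85 (SE 0.18, adjusted p = 0.00767, edgeR), and this call was kept without any 1 of the 8 libraries (adjusted p 0.00242 to 0.0318, edgeR). The differences to 0h were 0.48 at 3h (SE 0.18, adjusted p = 0.118), 0.09 at 24h (SE 0.18, adjusted p = 0.756) and -0.38 at 7d (SE 0.18, adjusted p = 0.321, all edgeR).

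Timp4 (ENSMUSG00000030317, chr6:115241892-115252205, minus strand) encodes the inhibitor with the most restricted distribution of the family, known for its high level in heart. Its promoter is shown as that of the member with the lowest fold change at 7d (RefSeq, GRCm38.p6, chr6:115252156-115252455, minus strand, 53.3% G and C), all in lower case because none of the 7 motifs searched matched.
Timp4 promoter: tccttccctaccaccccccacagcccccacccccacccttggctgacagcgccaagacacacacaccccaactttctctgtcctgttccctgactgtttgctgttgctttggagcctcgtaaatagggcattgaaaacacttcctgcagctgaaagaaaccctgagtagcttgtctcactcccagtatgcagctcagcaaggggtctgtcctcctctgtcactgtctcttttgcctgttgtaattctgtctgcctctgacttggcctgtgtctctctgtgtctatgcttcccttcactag
Among the 6 members with a promoter in the table, AP-1 and TATA matches were held by 1 each, GC boxes by 4 and CCAAT boxes by 3.

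Timp4 was at 63.3, 63.9, 83.8 and 45.6 TPM at 0h, at 64.4, 75.5, 83.6 and 81.9 TPM at 3h, at 48.7, 25.2, 30.5 and 57.9 TPM at 24h, and at 8.83, 26.5, 18.2 and 32.2 TPM at 7d. The 7d libraries were below every 0h and 3h library, and the 24h libraries were below every 3h library. Timp4 fell at 7d against 3h by 1.91 (SE 0.39, 0.267-fold, adjusted p = 0.0145, edgeR), a call kept without any 1 library (adjusted p 0.0182 to 0.0441, edgeR). At 7d against 0h the log2 difference was -1.47 (SE 0.38, 0.361-fold, adjusted p = 0.0981, edgeR), with 4 of 4 libraries lower and the call missed. It was called in 6 of 15 alternatives, DESeq2 and limma on log2(TPM + 1) among them. Over the 15 its adjusted p ran from 4.06e-27, by edgeR without a filter, to 0.153. The log2 difference without a filter was -1.45, close to the main value, so the very low adjusted p there did not come with a larger difference. In this comparison no member was called by edgeR, beside 0.86% of all genes (0.184% higher, 0.676% lower), and 3 members (Mmp3, Timp3 and Timp4) had an unadjusted p under 0.05 by edgeR, beside 15.3% of all genes. DESeq2 called 1 member, beside 3.01% of the genes it tested, and limma on log2(TPM + 1) called 1, beside 0.338%.

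Timp1, Timp3 and Timp4 each lie wholly within a synapsin gene on the opposite strand (Syn1, Syn3 and Syn2). The kit keeps strand, but the strand setting of the counting is not given in the sources used here, so reads of a pair may not be separated. Syn1 had 0 to 10 counts in a library, Syn3 0 to 6 and Syn2 20 to 97, against at least 17 counts for Timp1, 2310 for Timp3 and 175 for Timp4.

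The make-up of the TIMP transcripts differed between the times. Timp4 was 17.8% to 23.6% of the summed TIMP TPM at 0h, 22.8% to 24.3% at 3h, 8.88% to 19.1% at 24h and 3.66% to 13.5% at 7d, so its 7d share was below every 0h and 3h share. Timp1 was 2.06% to 2.63% at 0h, 1.76% to 3.57% at 3h, 5.61% to 27.6% at 24h and 2.83% to 6.21% at 7d. Timp2 was 32.8% to 43.6% at 0h, 27.9% to 29.9% at 3h, 26.2% to 37.7% at 24h and 40.2% to 54.5% at 7d. Because the shares of a library add up to the whole, they are not separate measurements, and no test was made on them. The summed TIMP level was 256 to 356 TPM at 0h, 282 to 366 TPM at 3h, 224 to 304 TPM at 24h and 219 to 250.1 TPM at 7d.

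**Figure D2:**
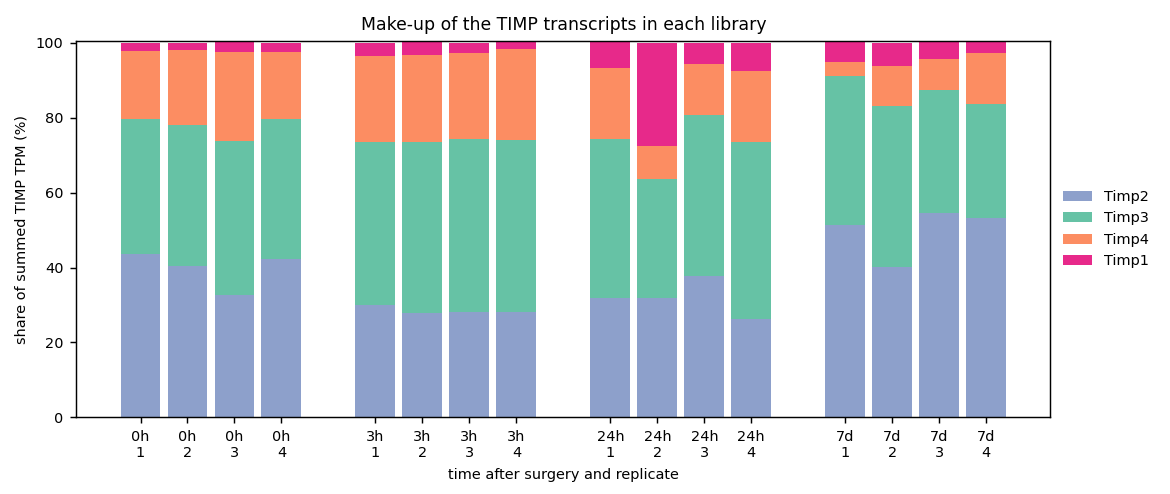
Share of the summed TIMP TPM (vertical axis, %) held by each TIMP in every library, ordered by time and replicate (horizontal axis). Timp4 takes 3.66% to 13.5% in the 7d libraries, below its 17.8% to 23.6% at 0h, and Timp1 reaches 27.6% in 24h replicate 2.

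Lox (ENSMUSG00000024529, chr18:52516067-52529867, minus strand) encodes the founding lysyl oxidase, which cross-links fibrillar collagens and elastin. It was at 7.83, 6.22, 5.21 and 4.61 TPM at 0h, at 7.97, 7.28, 8.70 and 7.38 TPM at 3h, at 15.7, 10.6, 4.61 and 13.9 TPM at 24h, and at 7.28, 6.50, 5 and 5.43 TPM at 7d. At 24h, 3 of the 4 libraries were above every library of the other times, while replicate 3 was as low as the lowest 0h library. Lox rose at 24h against 0h by 1.16 (SE 0.30, 2.23-fold, adjusted p = 0.0141, edgeR), and at 7d it fell by 1.05 against 24h (SE 0.29, adjusted p = 0.0355, edgeR). The first call was lost without 24h replicate 1 (0.91) or 4 (0.99). The second was lost without 24h replicate 1 or 4 or 7d replicate 1, 3 or 4 (-1.12 to -0.80).

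Loxl1 (ENSMUSG00000032334, chr9:58287738-58313186, minus strand) encodes a lysyl oxidase needed for elastic fibre upkeep. It was at 74.5, 57.4, 62.8 and 52.4 TPM at 0h, at 28.8, 32.0, 36.7 and 27.9 TPM at 3h, at 36.3, 73.8, 55.7 and 23.6 TPM at 24h, and at 55.3, 42.1, 54.2 and 72.6 TPM at 7d. The 3h libraries lay below every 0h and every 7d library, and the 24h libraries spread over the whole range. Loxl1 fell at 3h against 0h by 0.79 (SE 0.21, 0.576-fold, adjusted p = 0.0423, edgeR), with 4 of 4 libraries lower. It was the only member called in that comparison, beside 5.04% of all genes (1.86% higher, 3.18% lower). The call was lost without any 1 of the 8 libraries (adjusted p 0.0580 to 0.128, log2 difference -0.85 to -0.72, edgeR). The difference at 7d against 3h was 0.75 (SE 0.21, adjusted p = 0.0570, edgeR) and was not called.

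Loxl2 (ENSMUSG00000034205, chr14:69609068-69695834, plus strand) encodes a lysyl oxidase that acts on collagen type IV and has been studied in cardiac fibrosis. It was at 12.1, 14.7, 13.5 and 11.9 TPM at 0h, at 7.15, 7.98, 7.52 and 7.67 TPM at 3h, at 4.72, 11, 8.36 and 5.94 TPM at 24h, and at 6.72, 8.76, 13.4 and 13.1 TPM at 7d. All 3h and 24h libraries were below all 0h libraries, and the 7d libraries spread over both. Loxl2 fell at 24h against 0h by 0.61 (SE 0.20, adjusted p = 0.0390, edgeR). At 3h against 0h the difference was -0.60 (SE 0.20, adjusted p = 0.0825, edgeR), of like size and not called. The 24h call was lost without any 1 of the 4 libraries at 0h and without 24h replicate 1 or 4 (-0.67 to -0.47).

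Counted over the members, TPM did not overlap in 5 of 10 members at 3h against 0h (1 higher, 4 lower), beside 24% of all tested genes (3.36% higher, 20.6% lower). At 24h against 0h 4 of 10 members did not overlap (2 higher, 2 lower), beside 21.2% of all genes (4.25% higher, 17% lower). At 7d against 0h this held for 1 member, Timp4, which was lower, beside 9.98% of all genes (1.96% higher, 8.02% lower). Between later times it held for 3 members at 24h against 3h (2 higher, 1 lower), beside 11% of all genes (5.16% higher, 5.86% lower). At 7d against 3h it held for 5 (3 higher, 2 lower), beside 12.8% (8.59% higher, 4.23% lower), and at 7d against 24h for 1, Timp2, which was higher, beside 9.42% (6.15% higher, 3.27% lower). The median log2 fold change of the members was 0.11 at 3h, -0.01 at 24h and 0.05 at 7d against 0h, beside 0.00, -0.01 and 0 over all tested genes. The 3 comparisons to 0h share the 0h libraries.

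**Figure D3:**
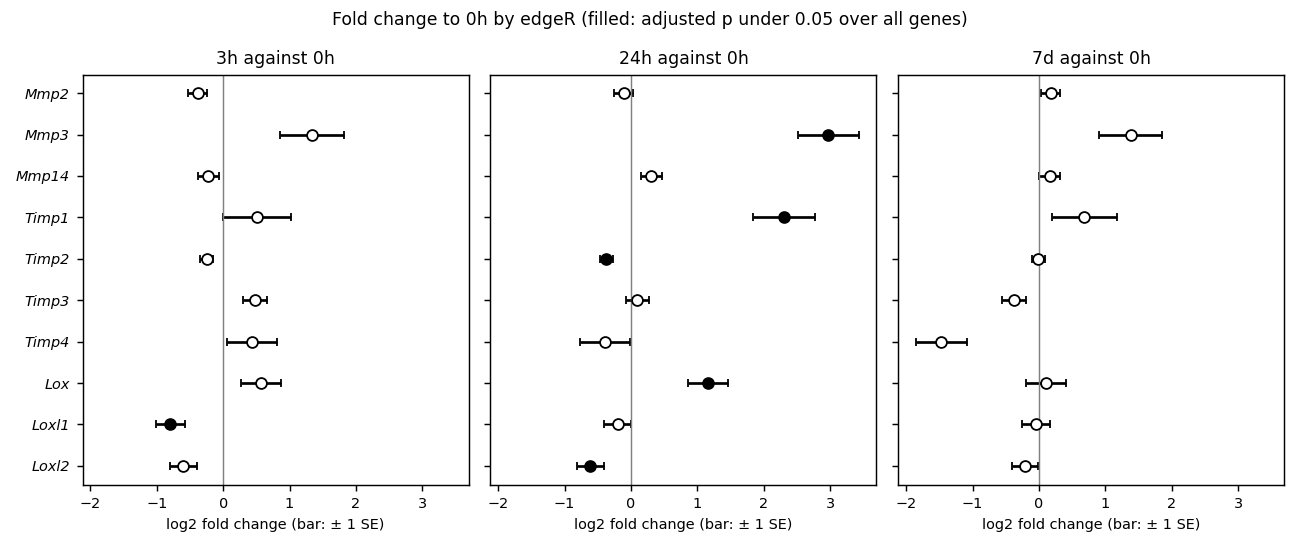
Log2 fold change of each member against 0h (horizontal axes) at 3h, 24h and 7d by edgeR, with bars of 1 SE and filled points where the adjusted p over all genes was under 0.05. Mmp3 (2.97), Timp1 (2.30) and Lox (1.16) stand to the right at 24h, Timp2 (-0.37) and Loxl2 (-0.61) to the left, and no point is filled at 7d.

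Some libraries carried transcripts of atrial muscle, although all are labelled left ventricle. Myl7, an atrial myosin light chain, was at 0, 1.10, 9.59 and 0 TPM at 0h, at 0.977, 2.73, 146 and 8.39 TPM at 3h, at 63.8, 126, 6.97 and 159 TPM at 24h, and at 0.504 to 0.844 TPM at 7d. Sln and Myl4, also atrial, were high in the same 4 libraries (3h replicate 3 and 24h replicates 1, 2 and 4), while Bmp10 had at most 1 count and the summed atrial list, which Nppa dominates, ran from 482 to 1010 TPM at 24h and from 456 to 1468 TPM at 0h. Of the 5 atrial markers tested, 3 were called higher at 24h than at 0h, among them Myl7 and Myl4, beside 9.2% of all genes. Sln was not called (log2 difference 4.89, adjusted p = 0.0564, edgeR).

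Among the 24h libraries, replicate 3, the one low in Myl7, had the lowest Mmp3 (19.9 TPM), Timp1 (12.6 TPM) and Lox (4.61 TPM). The 3h library with 146 TPM of Myl7 had 13.2 TPM of Mmp3, 10.3 TPM of Timp1 and 8.70 TPM of Lox, within or just above the range of the other 3h libraries. With Myl7 as a covariate the log2 differences at 24h against 0h were 2.60 for Mmp3, 1.51 for Timp1, -0.44 for Timp2, 0.66 for Lox and -0.62 for Loxl2, and none was called. Myl7 was itself called higher at 24h than at 0h (log2 difference 5.5, adjusted p = 0.0341, edgeR). Time and atrial transcripts therefore cannot be told apart in that fit. In the libraries low in Myl7 alone, where 24h replicate 3 is the lone 24h library and is assumed to vary like the other groups, they were 1.86, 0.84, -0.48, -0.28 and -0.55 in the same order of genes, none called, with the direction of Lox turned. That subset was chosen after the values were seen. Outside the 24h libraries, that subset kept the calls of Timp3 (-0.81) and Timp4 (-1.88) at 7d against 3h and of Loxl1 (-0.85) at 3h against 0h. At 7d against 3h it lost the call of Mmp2 (0.59) and gained that of Loxl1 (0.805). With Myl7 as a covariate all 4 calls of the main analysis outside 24h were lost. The log2 differences were -0.65 for Timp3, -1.64 for Timp4 and 0.53 for Mmp2 at 7d against 3h, and -0.78 for Loxl1 at 3h against 0h. That covariate left none of the 16 pairwise calls of members, and the calls over all genes fell too. They went from 2933 to 86 at 24h against 0h and from 1363 to 23 at 7d against 24h. At 24h against 3h they went from 1279 to 539, at 7d against 3h from 778 to 222 and at 3h against 0h from 850 to 187.

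**Figure D4:**
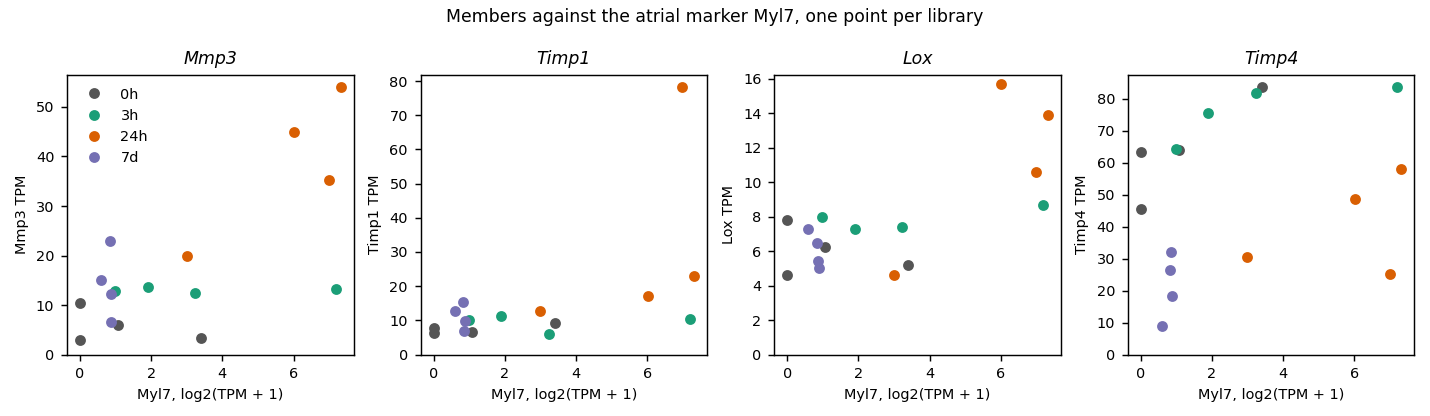
TPM of members (vertical axes) against log2(TPM + 1) of the atrial marker Myl7 (horizontal axes), 1 point per library, coloured by time. The 3 libraries at 24h with high Myl7 hold the highest Mmp3 and Lox levels, whereas the 3h library with 146 TPM of Myl7 has 13.2 TPM of Mmp3, close to the other 3h libraries.

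Markers of other cell types gave further context. Against 0h, 1.86% of all genes were called higher and 3.18% lower at 3h, and 9.2% higher and 8.19% lower at 24h. The 12 fibroblast markers, of the cells that make most matrix proteins in heart, summed to 2129 to 3574 TPM at 0h, 2141 to 2312 TPM at 3h, 2240 to 2478 TPM at 24h and 2605 to 3021 TPM at 7d. At 24h, 1 of them rose (Dcn) and 4 fell, among them Lum (-0.70) and Col1a2 (-0.60). The 11 listed neutrophil markers summed to 11.1 to 13.2 TPM at 0h, 148 to 571 TPM at 3h, 68.8 to 331 TPM at 24h and 17.6 to 108 TPM at 7d, and 6 of the 7 tested rose at 3h. Of 4 mesothelial markers tested, 2 fell at 24h, and the 8 listed summed to 3.75 to 5.74 TPM at 24h against 6.33 to 13.04 TPM at 0h. Beside the 3h fall of Loxl1, the 8 endothelial markers summed to 394 to 488 TPM at 3h against 578 to 781 TPM at 0h, without overlap. TPM ran lower at 3h over all tested genes (median difference -0.15 in log2(TPM + 1)), and 20.6% of them were lower without overlap. By edgeR 1 of the 8 was called lower, Kdr, the main VEGF receptor (-1.25, SE 0.26), beside 3.18% of all genes. Of 9 macrophage markers 2 rose at 3h, C1qb (0.57, SE 0.16) and C1qa (0.51, SE 0.13). Hepatocyte markers summed to 69.4 to 175 TPM at 3h against 62.3 to 85.3 TPM at 0h, and 4 of the 7 tested rose at 3h. Apoa1 among them averaged 7.89 ± 6.37 TPM at 3h against 0.07 ± 0.13 TPM at 0h, and Alb 17.4 ± 17.3 TPM against 0.07 ± 0.14 TPM. The part of these cells in the members' changes was not tested.

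Among the other metalloproteinases, 11 were tested. Of all genes, 1.86% were called higher at 3h against 0h, and 9.2% higher and 8.19% lower at 24h against 0h. Mmp8, a collagenase stored in neutrophil granules, had 1 count in all at 0h, 69 at 3h, 47 at 24h and 7 at 7d, and was called higher at 3h and at 24h than at 0h. Of its 47 counts at 24h, 37 were in replicate 4, and replicate 3 had 0. At 24h, 1 rose (Mmp8) and 2 fell, among them Mmp15, a membrane-type enzyme, at 28.9 ± 18.1 TPM at 24h against 80.4 ± 10.8 TPM at 0h (log2 difference -1.31, SE 0.30, adjusted p = 0.0105, edgeR). Mmp9, the other gelatinase, averaged 2.01 ± 0.30 TPM at 24h against 2.28 ± 1.04 TPM at 0h.

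Of 7 other regulators of metalloproteinases, 2 rose and 1 fell at 24h against 0h, beside 9.2% and 8.19% of all genes. Thbs2, a matricellular protein that aids the clearance of MMP2, rose to 24.2 ± 3.67 TPM at 24h against 14.0 ± 2.37 TPM at 0h (log2 difference 1.02, SE 0.22, adjusted p = 0.00522, edgeR). Reck, a membrane-anchored inhibitor, fell to 4.91 ± 0.73 TPM at 24h against 8.01 ± 1.54 TPM at 0h (-0.49, SE 0.16, adjusted p = 0.0334, edgeR). Lrp1, the endocytic receptor that takes up protease and inhibitor complexes, fell at 3h against 0h by 0.47 (SE 0.13, adjusted p = 0.0358, edgeR). Furin, which cleaves the MMP14 precursor, was lower at 7d than at 3h by a log2 difference of -0.71 (SE 0.12, adjusted p = 0.00151, edgeR).

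Of 21 ADAM and ADAMTS proteases, 2 rose and 1 fell at 3h against 0h, beside 1.86% and 3.18% of all genes. At 24h against 0h, 0 rose and 3 fell, beside 9.2% and 8.19% of all genes. Adamts15, an aggrecan-degrading enzyme, was at 6.06 ± 0.98 TPM at 3h against 2.67 ± 0.22 TPM at 0h (1.36, SE 0.28, adjusted p = 0.0100, edgeR). Adamts14, which trims procollagen, was higher at 3h by 1.18 (SE 0.32, adjusted p = 0.0353, edgeR), and Adam17, the TNF-releasing sheddase that TIMP3 inhibits, fell at 24h by 0.66 (SE 0.14, adjusted p = 0.00230, edgeR). Of 9 cysteine cathepsins and cystatins, 3 rose at 24h, beside 9.2% of all genes. They were Ctsl, a lysosomal protease (1.01, SE 0.19), Ctsh (0.45, SE 0.10) and their inhibitor Cst3 (0.56, SE 0.12).

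At 24h against 0h, 9.2% of all genes were called higher and 8.19% lower. Of 16 genes of collagen processing and cross-linking other than the lysyl oxidases, 1 rose and 5 fell at 24h, among them Pcolce2, an enhancer of procollagen cleavage (-0.38, SE 0.13). Tgm2, a transglutaminase that cross-links matrix by another chemistry, rose at 3h by 0.54 (SE 0.12, adjusted p = 0.0133, edgeR). Of 12 matrix substrates of these enzymes, 4 fell and none rose at 24h, among them Fbn1, the microfibril protein fibrillin (-0.69, SE 0.20), Col5a1 (-0.87, SE 0.22) and Col1a2 (-0.60, SE 0.19). The remaining lysyl oxidases were low: Loxl3 averaged 3.70 ± 1.11 TPM at 24h and 3.97 ± 0.92 TPM at 0h, and Loxl4 was at most 1.28 TPM in every library.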

How the data were processed

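The authors deposited 1 table of raw counts per gene, with TPM and FPKM beside them, for 16 libraries, per the file headers. Cutadapt, STAR and build mm10 are named in the submitters' processing notes; which tool counted the reads, with which annotation and strand setting, is not stated there. Columns were matched to samples by time and number, since their prefix differs from that of the titles. Deposited TPM were recovered from the counts and gene lengths within a relative difference of 1.7e-14; the deposited FPKM were not analysed further.

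Counts were fitted with edgeR 4.0.16 (TMM scaling, robust quasi-likelihood, R 4.3.3) for all 16 libraries in 1 fit, over 16866 genes with a mean TPM of at least 0.5, with Benjamini-Hochberg adjustment over all of them. Genes with no symbol (525) stayed in the table. The fit was tested on simulated data. Libraries held 8313655 to 12893551 counts, and no library pair of a time agreed within sampling noise (chi-square per degree of freedom at least 3.71). DESeq2 1.42.0 and limma 3.58.1 served as alternatives, with other scalings, filters, covariates and subsets of libraries.

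The members and gene lists were chosen with earlier results of these data known. From each list, up to 4 genes other than the members could be named, those with the smallest p for any change over time among the genes past the threshold; Mmp9, Loxl3, Loxl4, Bmp10, Nppa and the synapsins were named outside this rule. Promoters for 6 of the 10 members came from RefSeq (GRCm38.p6).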

Additional observations from a re-analysis of the deposited data

Results flagged for a closer look

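Timp1 in 24h replicate 2, at 78.3 TPM, stood apart from the other 24h libraries, at 17.2, 12.6 and 23.1 TPM. Its gap to the nearest of them was 0.84 of the range of the group, above Dixon's 95% critical value for 4 samples. Of 40 groups of 4 libraries examined (10 genes at 4 times), 1 was marked in this way, and chance marks about 5%.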

How the results depend on the processing

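Of the 60 pairwise tests of members, 16 were called. Over 375 alternative values for these, 372 kept their direction and 252 kept the call. Directions turned in 3, all in the libraries low in Myl7 alone, a subset chosen after seeing the data: Lox at 24h against 0h (-0.28), Lox at 7d against 24h (0.39) and Mmp14 at 24h against 3h (-0.068). The cause was not tested. Median-of-ratios scaling and a mean TPM filter of 2 moved no count of called members by over 1.5 times.

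At 3h against 0h, 1 member was called in the main analysis, 0 without scaling, with Myl7 as covariate, with the length trend removed and without 3h replicates 2 and 3, 2 by DESeq2 and by limma on log2(TPM + 1) and log2(TPM + 0.1), 5 by limma-voom with sample weights, 7 without a filter and 8 with both groups fitted alone. At 24h against 0h, 5 were called, and 0 with Myl7 as covariate or in libraries low in Myl7. At 7d against 0h, 0 were called, 1 by quantile normalization, DESeq2, limma on log2(TPM + 1), limma-voom with sample weights and non-robust variance, and 2 without a filter. At 24h against 3h, 3 were called, 7 without a filter, 1 (Mmp3) by quantile normalization, both limma-trend fits and both groups alone, and 0 with Myl7 or without 3h replicates 2 and 3. In libraries low in Myl7, with a lone 24h library, the log2 differences were 0.503 for Mmp3, 0.355 for Timp1 and -0.068 for Mmp14. With all libraries these 3 members were at 1.63, 1.79 and 0.52. Loxl1, not called with all libraries (0.59), was at 0.804 in that subset. At 7d against 3h, 3 were called, and 0 with Myl7 or without 3h replicates 2 and 3. At 7d against 24h, 4 were called, 2 by both limma-trend fits, and 0 with Myl7, with both groups alone or in libraries low in Myl7. For any change, 8 were called, 1 with Myl7, 3 without 3h replicates 2 and 3 and 4 in libraries low in Myl7.

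Leaving out 1 library gave 0 to 0 called members at 3h against 0h, 3 to 6 at 24h against 0h, 0 to 0 at 7d against 0h, 0 to 4 at 24h against 3h, 2 to 4 at 7d against 3h, 0 to 5 at 7d against 24h and 5 to 8 for any change. Over all genes these fits called 286 to 585 at 3h, 1575 to 4262 at 24h and 27 to 267 at 7d against 0h. They called 756 to 1644 at 24h against 3h, 444 to 774 at 7d against 3h and 755 to 2407 at 7d against 24h. For any change they called 2458 to 4718. Counts over all genes moved in the other alternatives too. At 3h against 0h, 850 genes were called in the main analysis, 187 with Myl7 as covariate, 351 without 3h replicates 2 and 3, 559 with the length trend removed, 1415 by DESeq2, 1786 without a filter, 2587 with sample weights and 3224 with both groups alone. Over the alternatives other than leaving out 1 library, all-gene calls ran from 86 (Myl7) to 3547 at 24h against 0h (2933 in the main analysis), 32 to 735 at 7d against 0h (145), 338 to 1846 at 24h against 3h (1279), 222 (Myl7) to 1458 at 7d against 3h (778), 23 (Myl7) to 1968 at 7d against 24h (1363) and 883 (Myl7) to 4725 for any change (3402).

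Replicate numbers did not pair libraries: deviations of same-numbered libraries correlated at -0.122 to 0.055, and 0 of 16 libraries lay closest to their own number. With the replicate block, 0 members were called at 3h against 0h, 5 at 24h against 0h, 0 at 7d against 0h, 3 at 24h against 3h, 3 at 7d against 3h, 4 at 7d against 24h and 7 for any change. Over all genes that fit called 637 at 3h, 2572 at 24h and 64 at 7d against 0h. It called 1069 at 24h against 3h, 647 at 7d against 3h, 1168 at 7d against 24h and 2802 for any change.

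Depth limits Timp1 and Mmp3 most, with as few as 17 and 16 counts in a library.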

Other observations

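Across the 16 libraries the members did not form a single block. The Pearson correlation of log2 CPM was 0.81 for Mmp3 and Lox, 0.78 for Timp3 and Timp4, 0.76 for Mmp3 and Timp1 and 0.70 for Mmp2 and Loxl1, and it was -0.82 for Timp3 and Loxl1. The points share the 4 times and the library differences described above, so these values describe the libraries and carry no test.

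The genes with the most similar pattern to each member, by the same measure over 16 libraries, were mostly outside the matrix lists. For Mmp3 they were Apod (0.938) and Tpd52l1 (0.934), for Timp1 Fgl2 (0.886) and Snx2 (0.859), and for Lox Osbpl9 (0.919) and Tmem50a (0.915). Timp3 ran closest to Slc43a3 (0.952) and Fam107a (0.949), Timp4 to Ccdc85a (0.922) and Arhgap27 (0.916), and Timp2 to F2r (0.910) and Cntln (0.875). Loxl1 ran closest to Sfpq (0.954) and to Cspg4 (0.953), a proteoglycan of pericytes. Loxl2 ran closest to Slc35g2 (0.859) and to Vcan (0.854), the matrix proteoglycan versican. Mmp2 ran closest to Pik3r3 (0.915) and Wdr6 (0.891), and Mmp14 to Ppp3ca (0.831) and Cxcl16 (0.819).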
